A study of Homo sapiens with 46 samples.

Results

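The comparison set the response of MDA-MB231 cells to 50 nM of the antisense oligonucleotide ASO-1570 against the response of the same line to an siRNA against TRA2B. MDA-MB231 is an established human breast carcinoma line. For every gene and splicing event the quantity was a difference of effects: the change under ASO-1570 relative to ASO-CTL, minus the change under siRNA-TRA2B relative to siRNA-CTL. The libraries were chosen by their labels, and 12 of the 46 libraries of the series entered: 3 with ASO-1570 at 50 nM, 3 with its control oligonucleotide ASO-CTL at 50 nM, 3 with siRNA-TRA2B at 10 nM and 3 with siRNA-CTL at 10 nM. All cells were transfected with the same lipid reagent and harvested 48 h later, and no other agent or allele is named in the labels. The oligonucleotides and the siRNAs were run as separate experiments with their own controls and their own deposited tables. The kind of molecule, its dose and the experiment therefore cannot be told apart in any value below. The rest of the series holds a 200 nM dose, the glioblastoma line U87MG and xenografts.

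TRA2B encodes an SR-like splicing factor that binds purine-rich exonic sequences containing AGAA and promotes their inclusion. It limits its own level through a poison exon, a conserved alternative exon with a premature stop codon, whose inclusion takes the transcript out of protein production. The paralog TRA2A is controlled in the same way and is held down by TRA2B. An siRNA cuts the mRNA with which it pairs, whereas a splice-switching oligonucleotide such as ASO-1570 pairs with pre-mRNA and changes exon choice.

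The deposited tables shared 60668 gene identifiers, of which 21461 passed the filter on low counts, and 118971 splicing events, of which 47960 were tested. Total counts per library ran from 84525189 to 112813820. Mitochondrial transcripts took 2.83 to 3.16% of counts in ASO-1570 libraries and 2.13 to 2.71% in ASO-CTL libraries, and 1.95 to 2.46% in siRNA-TRA2B libraries and 2.01 to 2.65% in siRNA-CTL libraries. The labels call the cell type glioblastoma while giving MDA-MB231 as the line. In the 12 libraries the epithelial keratin KRT8 lay at 486 to 628 CPM (counts scaled to library size), the glial marker GFAP at 1 to 3.67 CPM, and the glial transcription factor OLIG2 was at 0 in 9 libraries and at most 0.0119 CPM.

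TRA2B mRNA (chromosome 3, 185915906 to 185938136, minus strand, GRCh38) fell under both treatments and fell far more under the siRNA. It stood at 119, 119 and 145 CPM in ASO-1570 libraries, against 211, 222 and 216 CPM in ASO-CTL libraries. It stood at 23.4, 22.1 and 23.1 CPM in siRNA-TRA2B libraries, against 203, 200 and 193 CPM in siRNA-CTL libraries. Treated and control libraries did not overlap in either experiment, and the control groups of the experiments lay within 0.12 of each other on the log2 scale. The change was -0.76 under the oligonucleotide (adjusted p = 8.87e-06, edgeR's quasi-likelihood test) and -3.12 under the siRNA (adjusted p = 6.3e-10, edgeR). The difference of effects was 2.36 ± 0.094 (log2, SE, n = 3 libraries per group, adjusted p = 3.81e-07, edgeR), so less TRA2B mRNA was lost under the oligonucleotide.

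TRA2A mRNA (chromosome 7, 23504780 to 23532041, minus strand) rose under both treatments, and rose more under the siRNA. ASO-1570 libraries had 162, 151 and 145 CPM, against 97.9, 98 and 97.4 CPM in ASO-CTL libraries. The values were 200, 198 and 186 CPM in siRNA-TRA2B libraries and 95.7, 91.9 and 95 CPM in siRNA-CTL libraries. Every ASO-1570 library lay below every siRNA-TRA2B library, while both control groups lay between 91.9 and 98 CPM. The change was 0.65 under the oligonucleotide and 1.05 under the siRNA, and the difference of effects was -0.40 ± 0.06 (log2, SE, n = 3 per group, adjusted p = 0.000802, edgeR).

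The series describes ASO-1570 as a splice-switching oligonucleotide against TRA2B. The poison exon of TRA2B is a 276-base exon at chr3:185931577-185931852 on the minus strand. In the GENCODE v29 annotation on GRCh38 its first 78 bases are coding and are followed by a stop codon, and the rest is annotated as untranslated. It is shown up to that stop, together with the densest 30-base stretch of the equivalent 312-base exon of TRA2A at chr7:23522121-23522432 on the minus strand. Capitals mark AGAA, and both are written as transcribed.

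TRA2B exon, bases 1 to 81, chr3:185931772-185931852: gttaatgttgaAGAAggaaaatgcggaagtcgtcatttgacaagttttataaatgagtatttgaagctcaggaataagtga
TRA2A exon, bases 221 to 250, chr7:23522183-23522212: aaactcaatgaAGAAtgaagAGAAgtAGAA

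The whole TRA2B exon holds 12 copies of AGAA, overlaps counted, and the TRA2A exon holds 13. Each was picked as the tested cassette exon of its gene with the most AGAA, so these counts describe the choice. Only the transcribed strand was searched, and GAAGAA, which contains AGAA, occurred 3 times in the TRA2B exon and 4 times in the TRA2A exon. A match is a description of the letters, not a binding site.

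Inclusion was measured as PSI, the fraction of transcripts that include the exon. The poison exon of TRA2B had a PSI of 0.578, 0.490 and 0.377 in ASO-1570 libraries, against 0.305, 0.254 and 0.250 in ASO-CTL libraries. Its PSI was 0.379, 0.168 and 0.192 in siRNA-TRA2B libraries, against 0.228, 0.213 and 0.179 in siRNA-CTL libraries. All 3 ASO-1570 libraries lay above all 3 of their controls, whereas siRNA-TRA2B libraries lay on both sides of theirs. PSI differed by 0.212 between ASO-1570 and ASO-CTL (adjusted p = 0.0864, limma) and by 0.04 between siRNA-TRA2B and siRNA-CTL (adjusted p = 0.937). The difference of effects, 0.172 ± 0.084 (SE, n = 3 per group, adjusted p = 0.471, limma), did not pass the test. Host mRNA stood at 22.1 to 23.4 CPM in siRNA-TRA2B libraries, and the number of reads per event is not in the tables.

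The TRA2A exon had a PSI of 0.124, 0.111 and 0.11 in ASO-1570 libraries and of 0.208, 0.203 and 0.192 in ASO-CTL libraries. It had 0.036, 0.038 and 0.044 in siRNA-TRA2B libraries and 0.194, 0.182 and 0.189 in siRNA-CTL libraries. Treated libraries lay below their controls in both experiments, and lowest under the siRNA. The change was -0.086 under the oligonucleotide, which passed the p threshold (0.00179, limma) but not the size of 0.10 that a call also required, and -0.149 under the siRNA, which was called (adjusted p = 0.00105). The difference of effects was 0.063 ± 0.014 (SE, n = 3 per group, adjusted p = 0.0832, limma) and was not called.

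**Figure D1:**
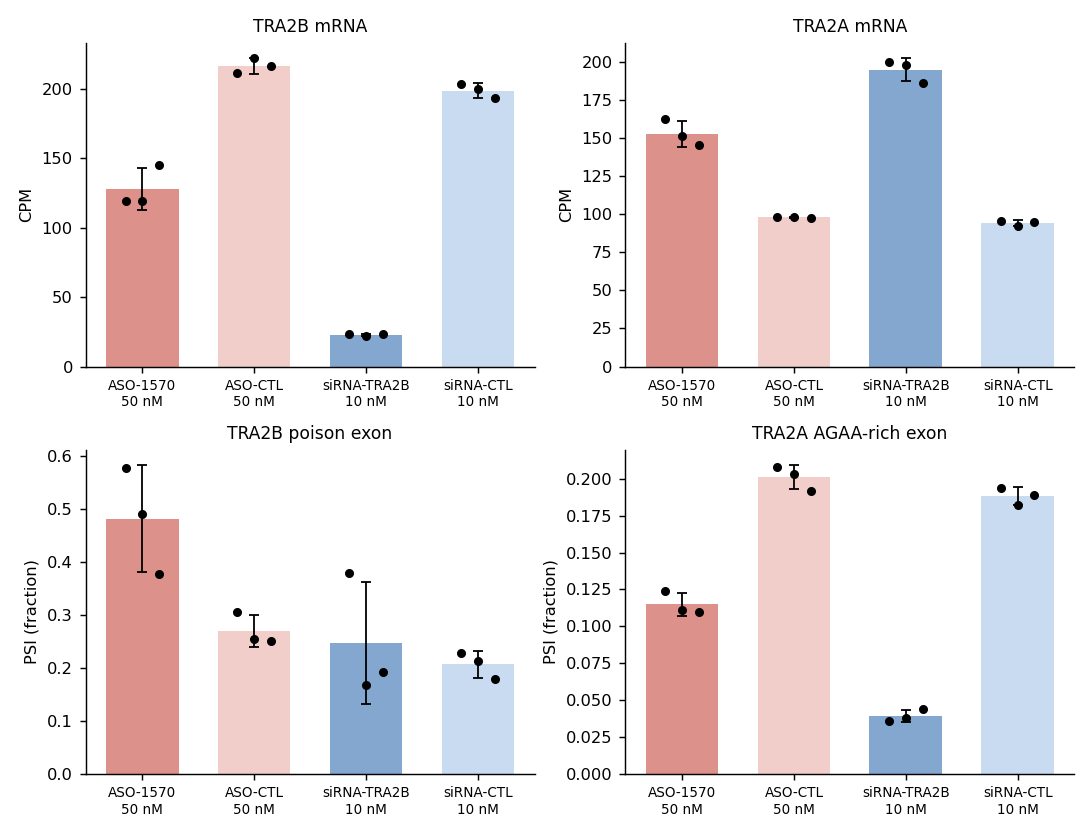
TRA2B and TRA2A mRNA in CPM (upper panels) and the PSI, as a fraction, of their AGAA-rich alternative exons (lower panels) in the 12 libraries. Points are libraries, bars are means and error lines are ± SD (n = 3 per group); TRA2B mRNA is 119 to 145 CPM with ASO-1570 and 22.1 to 23.4 CPM with siRNA-TRA2B, and the poison exon spans 0.377 to 0.578 with ASO-1570 and 0.168 to 0.379 with siRNA-TRA2B.

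Across all genes the effects of both treatments differed widely, and the oligonucleotide changed more genes. The difference of effects was called for 4436 of 21461 genes (20.7%; adjusted p below 0.05, edgeR), with 1852 above 0 (8.63%) and 2584 below 0 (12%). The oligonucleotide alone changed 7187 genes (33.5%), of which 3192 rose (14.9%) and 3995 fell (18.6%). The siRNA alone changed 1476 genes (6.88%), of which 701 rose (3.27%) and 775 fell (3.61%). That count ran from 626 to 1977 when 1 library was left out, the lowest without replicate 1 of siRNA-CTL and the highest without replicate 3 of ASO-1570. The change reached at least 2-fold in 865 of the genes called for the oligonucleotide and in 88 of those called for the siRNA. Median changes over all genes lay near 0 for the difference (0.008), the oligonucleotide (0.012) and the siRNA (-0.002).

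Genes changed in the same direction by both treatments numbered 510, of which 180 rose and 330 fell. They made up 7.1% of the calls for the oligonucleotide and 34.6% of the 1476 calls for the siRNA. Another 295 genes were called in opposite directions, 107 of them higher with the oligonucleotide and lower with the siRNA, and 188 the reverse. Of the 4436 genes with a called difference, 3335 (75.2%) were called for the oligonucleotide only and 388 for the siRNA only, and 333 for neither on its own. The effect of the oligonucleotide was the larger in absolute size in 3621 of them (81.6%). The 3 library effects of one treatment lay wholly on one side of those of the other in each of the 4436 genes and in 47% of all genes. The calls came from the same values, so this separation describes the called genes and is not a further test. Across genes, which are not independent replicates, the effects had a Pearson r of 0.088.

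**Figure D2:**
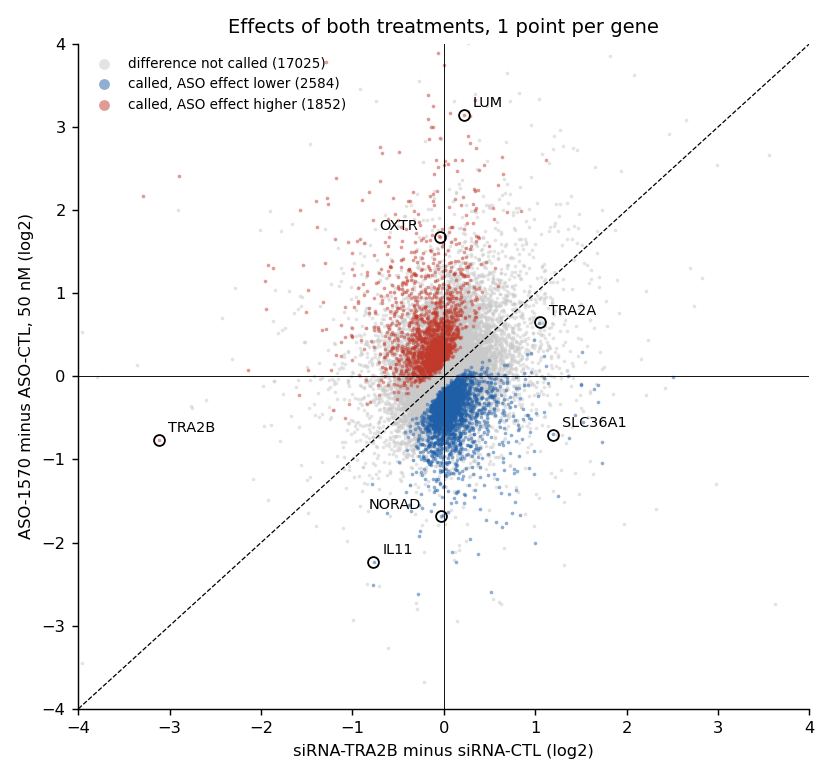
Change in log2 CPM under 50 nM ASO-1570 (vertical axis, against ASO-CTL) plotted against the change under siRNA-TRA2B (horizontal axis, against siRNA-CTL), 1 point per tested gene, with genes called for the difference in red (1852) and blue (2584). Most called genes spread along the vertical axis near 0 on the horizontal one; 58 genes lie outside the axes.

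Because the difference of effects joins 2 experiments, the levels of the control groups were set side by side; this was added after values had been seen. Over all genes the control groups lay farther apart than the treated groups in 39.9% of genes, and in 27.9% of the 4436 genes with a called difference (1238 genes). A group was said to stand alone when its mean lay farthest from the mean of the other 3 groups and those spanned less than 0.5 of that distance. Among the 4436 genes, ASO-1570 stood alone in 1767 (39.8%, against 19.5% of all genes), ASO-CTL in 346 (7.8%, against 7.22%), siRNA-TRA2B in 169 (3.81%, against 5.16%) and siRNA-CTL in 131 (2.95%, against 4.87%). No group stood alone in the remaining 2023.

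Genes of cell division made up the most uniform group. Of 57 mitosis genes tested, the difference of effects was called below 0 in 54 and above 0 in 1, with a median of -0.487. In every list, counts above or below 0 hold called genes only, and medians cover all tested members. The called share was 96.5%, against 20.7% of all genes. The oligonucleotide lowered 55 of them and raised 1 (median -0.484), whereas the siRNA lowered 1 and raised 2 (median 0.014). Over all genes the oligonucleotide lowered 18.6% and raised 14.9%, and the siRNA lowered 3.61% and raised 3.27%. CDC20, an activator of the anaphase-promoting complex, had 117, 113 and 121 CPM in ASO-1570 libraries, against 162, 170 and 159 CPM in ASO-CTL libraries. It had 136, 144 and 144 CPM in siRNA-TRA2B libraries, against 145, 140 and 148 CPM in siRNA-CTL libraries. All ASO-1570 libraries were lower than all others and ASO-CTL libraries were the highest. The difference was -0.46 ± 0.054 (log2, SE, adjusted p = 0.000183, edgeR). The spindle checkpoint gene MAD2L1 was at 97.3, 99.1 and 106 CPM in ASO-1570 libraries, 155, 156 and 143 CPM in ASO-CTL libraries, 123, 119 and 108 CPM in siRNA-TRA2B libraries and 115, 111 and 108 CPM in siRNA-CTL libraries. For MAD2L1 the group farthest from the rest was ASO-CTL, although ASO-1570 was also the lowest, and the difference was -0.66. BIRC5, which encodes survivin, differed by -0.64, and the checkpoint gene BUB3 by -0.55. The exception was CENPU, a centromere gene, at 76.2, 74.3 and 76.4 CPM in ASO-1570 libraries and 55.4, 56.7 and 64.5 CPM in ASO-CTL libraries, with a difference of 0.44. In this list the control groups differed by a median of 0.122 (ASO-CTL minus siRNA-CTL) and the treated groups by -0.378 (ASO-1570 minus siRNA-TRA2B). In bulk RNA, fewer cells of a type and less RNA per cell cannot be told apart.

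DNA replication genes were lower with the oligonucleotide and partly higher with the siRNA. The difference was called below 0 in 41 of 48 S-phase genes and called above 0 in 0 of them (median -0.459). The called share was 85.4%, against 20.7% of all genes. The oligonucleotide lowered 40 and raised none of the 48 (median -0.332), against 18.6% of all genes lowered and 14.9% raised. The siRNA raised 9 and lowered 1 (median 0.109), against 3.27% of all genes raised and 3.61% lowered. MCM10, a replication initiation factor, had 38, 37.1 and 42 CPM in ASO-1570 libraries, 59.9, 57.7 and 55.4 CPM in ASO-CTL libraries, 53.7, 51.9 and 52.6 CPM in siRNA-TRA2B libraries and 45.9, 44.5 and 47.8 CPM in siRNA-CTL libraries. Treated libraries thus lay below their controls for the oligonucleotide and above them for the siRNA, and the difference was -0.76 ± 0.071 (log2, SE, adjusted p = 4.9e-05, edgeR). The same opposite order held for RRM1, a ribonucleotide reductase subunit, which fell by 0.24 with the oligonucleotide and rose by 0.22 with the siRNA. E2F2, an E2F transcription factor, rose by 0.55 with the siRNA and had a change of -0.24 with the oligonucleotide that did not pass (adjusted p = 0.0763, edgeR). POLD3, a DNA polymerase delta subunit, differed by -0.69 and the licensing factor CDC6 by -0.50. The control groups differed by a median of 0.148 in the S-phase list and the treated groups by -0.316.

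Of 28 Fanconi and homologous recombination genes, the difference was called below 0 in 18 and called above 0 in none (median -0.351). The called share was 64.3%, against 20.7% of all genes. The oligonucleotide lowered 24 (median -0.32), against 18.6% of all genes. The siRNA raised 3 and lowered 1 (median 0.036), against 3.27% of all genes raised and 3.61% lowered. FANCI, a core protein of the Fanconi pathway, was at 50.5, 53.6 and 67.2 CPM in ASO-1570 libraries, against 118, 115 and 109 CPM in ASO-CTL libraries. In the siRNA experiment it was at 105, 108 and 104 CPM with siRNA-TRA2B, against 93.1, 92.8 and 91.6 CPM with siRNA-CTL. ASO-1570 libraries were the lowest, and the difference was -1.19 ± 0.11 (log2, SE, adjusted p = 5.11e-05, edgeR). UBE2T differed by -0.66 and RAD54L by -0.90. FANCI overlaps POLG and RAD54L overlaps LRRC41 on the opposite strand, and whether the counting used the strand is not stated, so their reads cannot be told apart. Leaving out each library in turn gave 48 to 56 mitosis genes, 35 to 43 S-phase genes and 15 to 18 repair genes called below 0.

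**Figure D3:**
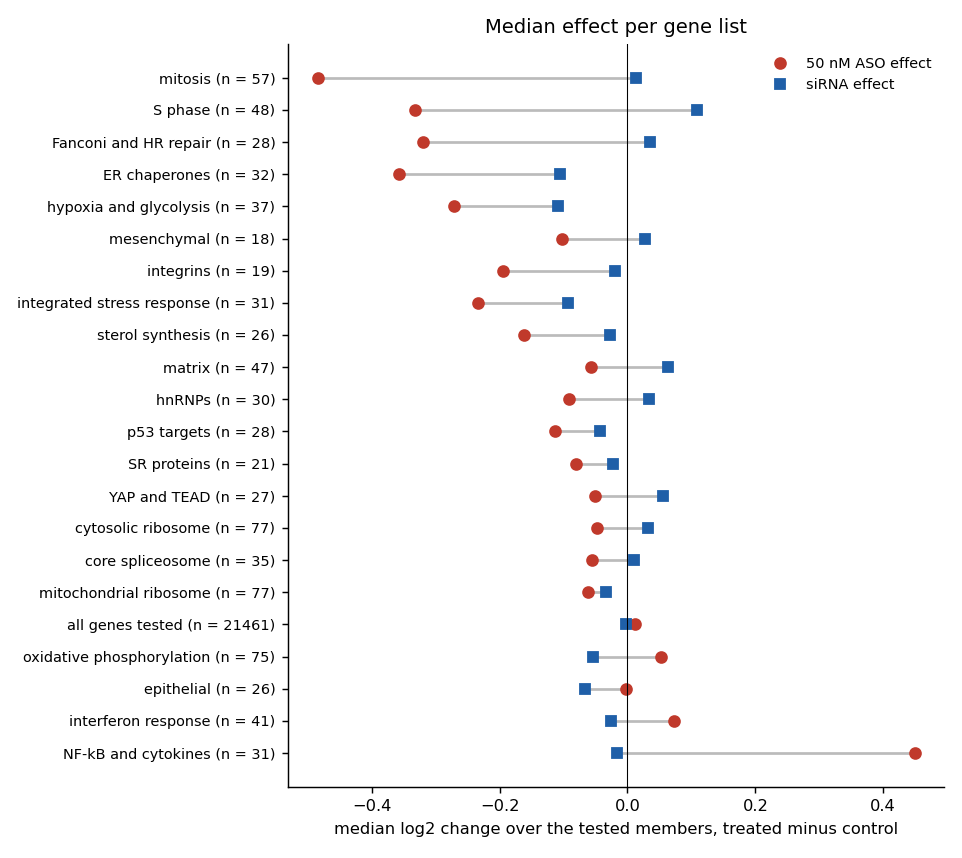
Median log2 change over the tested members of each gene list, under 50 nM ASO-1570 (red circles) and siRNA-TRA2B (blue squares), ordered by the median difference. Mitosis, S phase and repair lie at -0.484, -0.332 and -0.32 with the oligonucleotide and at 0.014, 0.109 and 0.036 with the siRNA, and all genes tested lie near 0 with both.

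Inflammatory genes gave a mixed picture with large spread between ASO-1570 libraries. Of 31 NF-kB and cytokine genes, the difference was called above 0 in 3 and below 0 in 3, a share of 19.4% against 20.7% of all genes. It was not called in 25, and the median over all 31 was 0.483. The oligonucleotide raised 12 and lowered 3, against 14.9% of all genes raised and 18.6% lowered. The siRNA raised 1 and lowered 1, against 3.27% and 3.61% of all genes. RELB, a subunit of NF-kB, was at 24.7, 19.8 and 13 CPM in ASO-1570 libraries, against 9.08, 9.68 and 11.1 CPM in ASO-CTL libraries. It was at 7.71, 7.44 and 7.35 CPM in siRNA-TRA2B libraries, against 8.61, 8.78 and 7.24 CPM in siRNA-CTL libraries. All ASO-1570 libraries were above all others, by amounts that varied, and the difference was 1.07 ± 0.26 (log2, SE, adjusted p = 0.0111, edgeR). TNFAIP2, a TNF-induced gene, differed by 1.20, and NFKBIA, the inhibitor of NF-kB, by 0.85 (adjusted p = 0.0488, edgeR), a call that was lost when any 1 library other than replicate 3 of ASO-1570 was left out (adjusted p = 0.0506 to 0.115). Replicate 1 of ASO-1570 was the highest of its group for RELB, TNFAIP2 and NFKBIA. It was also the highest for the chemokine gene CXCL8, at 139, 53.5 and 27 CPM in ASO-1570 libraries and 38.4, 51.3 and 63.7 CPM in ASO-CTL libraries, where the groups overlapped and the difference of 0.65 was not called (adjusted p = 0.559, edgeR).

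In the other direction stood 2 cytokines of the interleukin 6 family. IL11 was at 5.24, 4.76 and 5.54 CPM in ASO-1570 libraries, against 25.3, 23.8 and 23.9 CPM in ASO-CTL libraries. It was at 7.38, 7.48 and 6.57 CPM in siRNA-TRA2B libraries, against 11.8, 11.7 and 13 CPM in siRNA-CTL libraries. Both treatments lowered IL11, and ASO-CTL lay 1.0 above siRNA-CTL on the log2 scale while ASO-1570 differed from siRNA-TRA2B by -0.46, so the called difference of -1.47 ± 0.11 (log2, SE, adjusted p = 1.35e-05, edgeR) carries the gap between the control groups. LIF had 21.5, 23.1 and 23.8 CPM in ASO-1570 libraries, against 35, 42.5 and 37.9 CPM in ASO-CTL libraries, with 32.3 to 34.2 CPM in siRNA-TRA2B libraries and 30.6 to 35.9 CPM in siRNA-CTL libraries. LIF differed by -0.72, and NFKB1 by -0.45.

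Of 41 interferon response genes, the difference was called above 0 in 16 and called below 0 in 3, with a median of 0.203 over all 41. The called share was 46.3%, against 20.7% of all genes. The oligonucleotide raised 16 and lowered 4 (median 0.072), against 14.9% of all genes raised and 18.6% lowered. The siRNA raised 2 and lowered 2 (median -0.026), against 3.27% and 3.61% of all genes. IFIT2, an interferon-induced inhibitor of translation, had 102, 101 and 92.9 CPM in ASO-1570 libraries, 66.2, 63.3 and 60.6 CPM in ASO-CTL libraries, 70.9, 69 and 77.3 CPM in siRNA-TRA2B libraries and 69.8, 72.8 and 75.2 CPM in siRNA-CTL libraries. ASO-1570 libraries were highest, and the difference was 0.64 ± 0.076 (log2, SE, adjusted p = 0.000183, edgeR). For TRIM22 the odd group was ASO-CTL, at 2.82 to 3.02 CPM, against 5.08 to 5.22 CPM in ASO-1570 libraries, 4.23 to 4.85 CPM in siRNA-TRA2B libraries and 3.85 to 4.32 CPM in siRNA-CTL libraries, and the difference was 0.69. IFIT1 differed by 0.61 and HERC6 by 0.38, while OAS3 (-0.45), GBP1 (-0.37) and CMPK2 (-0.96) were below 0. IFIT1 and IFIT2 overlap LIPA, and TRIM22 overlaps TRIM5, on the opposite strand. In this list the control groups lay farther apart than the treated groups in 23 of 41 genes (medians -0.209 and -0.006).

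Sensors of foreign nucleic acid and the proteins that act with oligonucleotides or siRNAs were called in both directions. Of 21 nucleic acid sensing genes, the difference was called above 0 in 4 and called below 0 in 2 (28.6%, against 20.7% of all genes). STING1, the adaptor of cytosolic DNA sensing, had 15, 14.7 and 15.5 CPM in ASO-1570 libraries, 9.17, 10.6 and 10.9 CPM in ASO-CTL libraries, 12.9, 12.1 and 14.2 CPM in siRNA-TRA2B libraries and 14.6, 13.8 and 15.7 CPM in siRNA-CTL libraries. Here ASO-CTL was the group that stood alone, and the difference was 0.72 (adjusted p = 0.00111, edgeR), a call that was lost for STING1 in a fit with the U87MG libraries (adjusted p = 0.214). The RNA helicase DHX9 differed by -0.42 and the RNA editing enzyme ADAR by 0.22. Of 13 RNA interference genes, 1 was called above 0 and 3 below 0 (30.8%, against 20.7% of all genes). Those below 0 included AGO2, the slicer that siRNAs load, at 155 to 164 CPM in ASO-1570 libraries, 168 to 184 CPM in ASO-CTL libraries, 171 to 177 CPM in siRNA-TRA2B libraries and 155 to 161 CPM in siRNA-CTL libraries. Of 16 paraspeckle and RNase H genes, 1 was called above 0 and 5 below 0 (37.5%). RNASEH1 differed by -0.37, and the paraspeckle RNA NEAT1 by 0.70 ± 0.20 (log2, SE, adjusted p = 0.0266, edgeR), a call that was lost without replicate 1 or 2 of ASO-1570, replicate 1 or 3 of ASO-CTL or replicate 3 of siRNA-CTL (adjusted p = 0.0537 to 0.063).

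Genes of protein folding in the endoplasmic reticulum (ER) fell with the oligonucleotide. Of 32 ER genes, the difference was called below 0 in 10, called above 0 in none and not called in 22 (median -0.295). The called share was 31.2%, against 20.7% of all genes. The oligonucleotide lowered 23 and raised none, against 18.6% of all genes lowered and 14.9% raised. The siRNA lowered 2 and raised 1, against 3.61% and 3.27% of all genes. EDEM1, which sends misfolded glycoproteins to degradation, had 79.1, 87.3 and 105 CPM in ASO-1570 libraries and 204, 224 and 232 CPM in ASO-CTL libraries. It had 236, 235 and 202 CPM in siRNA-TRA2B libraries and 245, 246 and 203 CPM in siRNA-CTL libraries. ASO-1570 libraries lay far below every other library, and the difference was -1.24 ± 0.15 (log2, SE, adjusted p = 0.00023, edgeR). The stress sensor ATF6 differed by -0.53, the co-chaperone DNAJC3 by -0.54 and the disulfide isomerase PDIA5, which overlaps SEC22A, by -0.67. HYOU1, an ER chaperone, fell with both treatments: it changed by -0.64 with the oligonucleotide and -0.54 with the siRNA, and the difference of -0.11 ± 0.15 (log2, SE) did not pass (adjusted p = 0.685, edgeR). Its siRNA call was lost without replicate 1 of siRNA-CTL (adjusted p = 0.0636, edgeR) and without replicate 2 (0.0503).

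Other stress and metabolic lists had fewer called members or calls in both directions. Of 37 hypoxia and glycolysis genes, the difference was called above 0 in 2 and called below 0 in 8 (27%, against 20.7% of all genes). Without 1 library the number called below 0 ranged from 5 to 18, with 18 when replicate 3 of ASO-1570 was left out. CA9, a carbonic anhydrase and hypoxia marker, had 9.14, 11.7 and 13.6 CPM in ASO-1570 libraries, 19.2, 21.4 and 23.4 CPM in ASO-CTL libraries, and 20.9 to 25.1 CPM in all siRNA libraries. The pyruvate dehydrogenase kinase PDK1 differed by -0.58, the glycolytic mutase PGAM1 by -0.34, and ARNT, a partner of the hypoxia-inducible factors, by 0.53. Of 26 sterol synthesis genes, 8 were called below 0, among them STARD4 (-0.57), a sterol carrier, and none was called above 0 (30.8%). Of 31 integrated stress response genes, 1 was called above 0 and 3 below 0, and of 19 heat shock genes, 2 and 4. The called shares were 12.9% and 31.6%, beside 20.7% of all genes. Of 28 p53 target genes, 6 were called above 0 and 6 below 0 (42.9%). CCNG1, a p53-induced cyclin, rose with both treatments, to 163, 156 and 132 CPM in ASO-1570 libraries and 111, 109 and 102 CPM in siRNA-TRA2B libraries, against 73.1, 71.7 and 73.4 CPM in ASO-CTL libraries and 87.3, 86.3 and 78.6 CPM in siRNA-CTL libraries. MDM2, which restrains p53, differed by -0.42 and the apoptotic nuclease AEN by -0.60.

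Adhesion and matrix genes included some of the largest differences. Of 47 matrix genes, the difference was called above 0 in 5 and called below 0 in 15 (42.6%, against 20.7% of all genes). LUM, the proteoglycan lumican, had 17.2, 17.2 and 15.7 CPM in ASO-1570 libraries, 2.13, 1.92 and 1.57 CPM in ASO-CTL libraries, 2.87, 2.61 and 2.47 CPM in siRNA-TRA2B libraries and 2.35, 2.05 and 2.41 CPM in siRNA-CTL libraries. Among the 12 libraries the 3 with ASO-1570 were high, and the difference was 2.93 ± 0.16 (log2, SE, adjusted p = 3.98e-06, edgeR). LUM is also a fibroblast marker, and the summed level of 12 fibroblast markers was 32.4 to 38.5 CPM in ASO-1570 libraries and 17.4 to 18.3 CPM in ASO-CTL libraries, against 23.3 to 24.1 CPM in siRNA-TRA2B libraries and 22.4 to 23.8 CPM in siRNA-CTL libraries. Of the 6 fibroblast markers tested, only LUM was called for the difference (16.7%, against 20.7% of all genes). The part of such cells in these results was not tested. TNC, the matrix protein tenascin C, had 53.5, 55.1 and 69.5 CPM in ASO-1570 libraries, 107, 95.6 and 114 CPM in ASO-CTL libraries, 136, 138 and 154 CPM in siRNA-TRA2B libraries and 118, 124 and 118 CPM in siRNA-CTL libraries. TNC differed by -1.08 and the crosslinking enzyme LOXL4 by 0.99.

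Of 19 integrin genes, 1 was called above 0 and 4 below 0 (26.3%, against 20.7% of all genes). ITGB1, the common beta subunit of many matrix receptors, had 838, 883 and 1140 CPM in ASO-1570 libraries and 2100, 2160 and 2150 CPM in ASO-CTL libraries, while all siRNA libraries lay between 2070 and 2270 CPM. The difference was -1.19 ± 0.14 (log2, SE, adjusted p = 0.00016, edgeR). ITGA6, a laminin receptor subunit, differed by -0.63, ITGB8 by -0.80, and ITGB2 by 1.01, a call that was lost for ITGB2 in a fit with the U87MG libraries (adjusted p = 0.141, edgeR). Of 27 YAP and TEAD genes, 5 were called above 0 and 10 below 0 (55.6%). YAP1, a transcriptional coactivator, had 264, 264 and 278 CPM in ASO-1570 libraries, 448, 442 and 439 CPM in ASO-CTL libraries, and 435 to 478 CPM in all siRNA libraries. Its partner TEAD1 differed by -0.68, their target CCN2 by -0.76 and the growth factor TGFB2 by 0.62. TGFB2 rose with the oligonucleotide to 340, 346 and 314 CPM in ASO-1570 libraries, against 194, 191 and 196 CPM in ASO-CTL libraries.

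Of 26 epithelial genes, the difference was called above 0 in 7 and below 0 in 3, and of 18 mesenchymal genes, 1 and 6. The called shares were 38.5% and 38.9%, against 20.7% of all genes. CDH1, which encodes E-cadherin, was at 7.94, 9.27 and 8.31 CPM in ASO-1570 libraries, against 4.5, 4.36 and 3.77 CPM in ASO-CTL libraries, and at 5.28, 4.2 and 4.85 CPM in siRNA-TRA2B libraries, against 4.03, 4.47 and 4.5 CPM in siRNA-CTL libraries. ASO-1570 libraries were highest, and the difference was 0.87 ± 0.15 (log2, SE, adjusted p = 0.00159, edgeR). KRT7, an epithelial keratin, differed by 0.47. For KRT7 the control groups lay -0.31 apart and the treated groups 0.15. Of the other cell type markers tested, the difference was called in 1 of 6 glial, 1 of 6 immune and 2 of 4 endothelial genes. Those shares were 16.7%, 16.7% and 50%, beside 20.7% of all genes, and rest on few genes. Summed glial markers were 36.1 to 41.7 CPM in ASO-1570 libraries and 38.2 to 41.3 CPM in ASO-CTL libraries, against 55.9 to 64.4 CPM in siRNA-TRA2B libraries and 56.2 to 56.9 CPM in siRNA-CTL libraries. Summed immune markers were 44.4 to 51.9 CPM in ASO-1570 libraries and 52 to 59.2 CPM in ASO-CTL libraries, against 53.8 to 56.9 CPM in siRNA-TRA2B libraries and 64.9 to 74.5 CPM in siRNA-CTL libraries, lower in the treated libraries of both experiments without overlap. Their part in the results was not tested.

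In the lists of splicing and RNA-binding genes most members did not pass for the difference. Of 21 SR protein and regulator genes, which include TRA2B and TRA2A, the difference was called above 0 in 3 and below 0 in 6. The called share was 42.9%, against 20.7% of all genes. SRRM1, a splicing coactivator, rose with the siRNA to 209, 208 and 204 CPM in siRNA-TRA2B libraries, against 155, 164 and 158 CPM in siRNA-CTL libraries, and lay at 154, 154 and 162 CPM in ASO-1570 libraries and 160, 165 and 171 CPM in ASO-CTL libraries. Here siRNA-TRA2B was the group that stood alone, and the difference was -0.46 ± 0.052 (log2, SE, adjusted p = 0.000144, edgeR). SRPK1, an SR protein kinase, differed by -0.57. Of 30 hnRNP and related genes, 10 were called below 0 and none above 0 (33.3%). The number called below 0 ranged from 6 to 14 when 1 library was left out. QKI, a regulator of splicing and mRNA stability, had 100, 97.8 and 114 CPM in ASO-1570 libraries, 193, 193 and 188 CPM in ASO-CTL libraries, and 168 to 192 CPM in all siRNA libraries, a difference of -1.0. Of 35 core spliceosome genes, 1 was called above 0 and 9 below 0 (28.6%). Those below 0 included SF3A3 (-0.69) and SF3A1 (-0.52) of the U2 particle. In that list the control groups lay farther apart than the treated groups in 20 of 35 genes. Of 20 nonsense-mediated decay genes, 2 were called above 0 and 5 below 0 (35%).

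Of 6 Pumilio-related genes, 1 was called above 0 and 3 below 0 (66.7%). NORAD, a cytoplasmic long noncoding RNA that binds Pumilio proteins, had 209, 208 and 267 CPM in ASO-1570 libraries, against 747, 707 and 741 CPM in ASO-CTL libraries. The siRNA libraries lay between 648 and 765 CPM in both groups. ASO-1570 stood alone, and the difference was -1.65 ± 0.13 (log2, SE, adjusted p = 1.67e-05, edgeR). Of 77 cytosolic ribosomal protein genes, 5 were called below 0, RPS6 among them at -0.38, and none above 0 (6.49%, beside 20.7% of all genes). The control groups lay farther apart than the treated groups in 56 of the 77. Of 77 mitochondrial ribosomal genes, 3 were called above 0 and 14 below 0, with MRPS27 at -0.89. Of 75 oxidative phosphorylation genes, 9 were called above 0 and 3 below 0. Called members made up 22.1% of the mitochondrial ribosomal and 16% of the oxidative phosphorylation genes, beside 20.7% of all genes. Of 37 lysosome and autophagy genes the counts were 4 and 7 (29.7%). They were 1 and 2 of 22 snoRNA hosts (13.6%), and 1 and 2 of 12 microRNA hosts (25%).

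Among genes with a mean of at least 8 CPM, the largest positive differences included, besides TRA2B, several high only with ASO-1570. The mean, on the log2 scale, included ASO-1570 libraries, so genes low elsewhere, such as PPARGC1A and VIM-AS1, could pass through them. Being high in that group is thus partly set by this choice. OXTR, the oxytocin receptor, had 26, 33.7 and 31.5 CPM in ASO-1570 libraries, 9.88, 9.57 and 9 CPM in ASO-CTL libraries, 8.83, 8.54 and 8.87 CPM in siRNA-TRA2B libraries and 8.81, 8.13 and 10.1 CPM in siRNA-CTL libraries. The difference was 1.72 ± 0.14 (log2, SE, adjusted p = 2.09e-05, edgeR). PPARGC1A, a coactivator of mitochondrial biogenesis, had 18.7, 18.1 and 13.8 CPM in ASO-1570 libraries, against 6.5, 5.28 and 5.72 CPM in ASO-CTL libraries, with 7.06 to 8.06 CPM in siRNA-TRA2B libraries and 5.67 to 6.84 CPM in siRNA-CTL libraries, a difference of 1.25. The mucin MUC1 had 48.9, 46.2 and 48.1 CPM in ASO-1570 libraries, 23, 18.4 and 22.6 CPM in ASO-CTL libraries, 24.5, 22.8 and 33.9 CPM in siRNA-TRA2B libraries and 32.4, 31.3 and 43.8 CPM in siRNA-CTL libraries. Its difference of 1.57 joins control groups that lay -0.74 apart and treated groups that lay 0.84 apart. ID3, an inhibitor of helix-loop-helix factors, differed by 1.25. GXYLT2 (1.22) and CFAP251 (1.34) rest mainly on the siRNA experiment, where siRNA-CTL was the highest group.

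Others of this set overlap a neighbour, so that reads cannot be assigned with certainty where the strand used in counting is unknown: VIM-AS1 (2.31, over VIM), PRADX (1.95, over CTSD), ELF3 (1.66, over ELF3-AS1), ZBED10P (1.55, over LRRC61), ZNF320 (1.53, over ZNF468), CFAP251 (over PSMD9) and GXYLT2 (over PPP4R2). VIM-AS1 stood at 43.4, 31.6 and 6.8 CPM in ASO-1570 libraries and at 5.49 to 6.89 CPM in the other 9, so its difference rests on 2 of 3 libraries. The call of VIM-AS1 was lost without any 1 of 6 libraries (adjusted p = 0.051 to 0.0553, edgeR), with the replicate block (0.0562) and in a fit with the U87MG libraries (0.363).

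On the negative side, NORAD stood among genes of several functions. SLC36A1, a lysosomal amino acid transporter, had 13.8, 14.2 and 16.7 CPM in ASO-1570 libraries, 23.6, 24.3 and 24.5 CPM in ASO-CTL libraries, 25.6, 26.2 and 28.4 CPM in siRNA-TRA2B libraries and 10.7, 12.8 and 11.4 CPM in siRNA-CTL libraries. Each treatment moved SLC36A1 in its own direction, with control levels 1.05 apart, and the difference was -1.89 ± 0.12 (log2, SE, adjusted p = 5.57e-06, edgeR). CENPH, a kinetochore gene, had the same arrangement, with 6.61, 7.75 and 8.97 CPM in ASO-1570 libraries, 14.8, 16.3 and 13.2 CPM in ASO-CTL libraries, 14.5, 14.8 and 12.5 CPM in siRNA-TRA2B libraries and 8.16, 9.38 and 7.72 CPM in siRNA-CTL libraries. In both genes ASO-CTL lay near siRNA-TRA2B and ASO-1570 near siRNA-CTL. COL6A3, a collagen VI chain, also fell with the oligonucleotide and rose with the siRNA (difference -1.49), but its control groups lay only 0.25 apart. CTDSPL, a phosphatase gene that hosts a microRNA, differed by -1.70, TYMS, the thymidylate synthase, by -1.67, AIDA by -1.54, SLCO4A1, an anion transporter, by -1.64, IGFBP1, a binding protein of insulin-like growth factors, by -1.43 and LRRC58 by -1.40. TYMS overlaps ENOSF1, AIDA overlaps BROX and SLCO4A1 overlaps SLCO4A1-AS1 on the opposite strand.

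Genes called in opposite directions by each treatment also included IGFBPL1 (-0.47 with the oligonucleotide, 0.91 with the siRNA), whose control groups lay 1.07 apart. With the oligonucleotide up and the siRNA down stood TP53INP1 (0.36 and -0.77), CITED2 (0.81 and -0.25), PARD6B (0.46 and -0.60) and DDAH2 (0.64 and -0.38). CITED2, a transcriptional coregulator, had 181, 190 and 177 CPM in ASO-1570 libraries, 99, 106 and 107 CPM in ASO-CTL libraries, 108, 110 and 107 CPM in siRNA-TRA2B libraries and 132, 133 and 123 CPM in siRNA-CTL libraries. DDAH2 overlaps CLIC1 and TP53INP1 overlaps NDUFAF6.

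Genes that moved alike were fewer. RNF152, a lysosomal ubiquitin ligase, had 11.5, 11.8 and 12.3 CPM in ASO-1570 libraries, 8.45, 8.96 and 8.55 CPM in ASO-CTL libraries, 9.65, 9.96 and 9.41 CPM in siRNA-TRA2B libraries and 6.77, 7.26 and 7.04 CPM in siRNA-CTL libraries. It rose by 0.46 with each treatment, and the difference was -0.01 ± 0.081 (log2, SE, adjusted p = 0.971, edgeR). ZNF512 rose by 0.50 and 0.41, AUH, a mitochondrial RNA-binding hydratase, by 0.46 and 0.56, and PRRG4 by 0.61 and 0.48, although the siRNA call of PRRG4 was lost without either of 2 siRNA-TRA2B or either of 2 siRNA-CTL libraries (adjusted p = 0.0513 to 0.0669, edgeR). Among genes that fell with both, ADGRG1, an adhesion receptor, changed by -0.57 with the oligonucleotide and -0.56 with the siRNA, and the noncoding RNA LUCAT1 by -0.56 and -0.54. SEMA6B changed by -1.19 and -0.62, and its difference of -0.57 ± 0.23 (log2, SE, adjusted p = 0.106, edgeR) did not pass. The siRNA call of SEMA6B was lost without any 1 of the siRNA libraries, without 3 of the oligonucleotide libraries in turn, without the low-count filter and in a fit with the U87MG libraries (adjusted p = 0.0569 to 0.154, edgeR). THBS1-IT1, which lies within THBS1, rose with both and was called for the difference (0.74). A difference that did not pass does not show that both effects are equal.

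**Figure D4:**
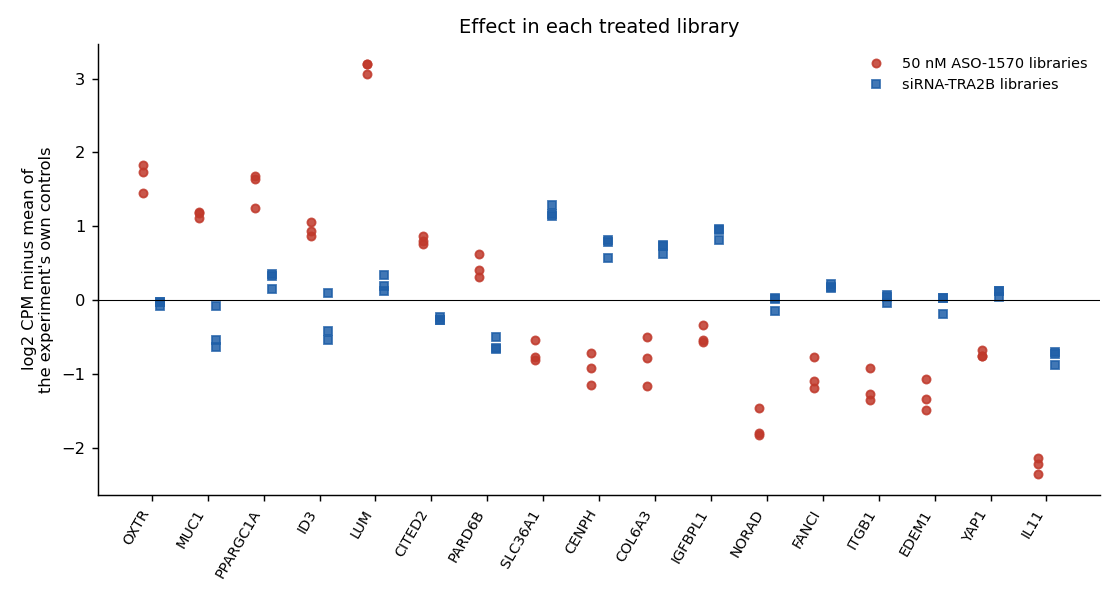
Log2 CPM in each treated library minus the mean of the controls of its own experiment for 17 genes, with ASO-1570 libraries as red circles and siRNA-TRA2B libraries as blue squares. OXTR, LUM, NORAD and ITGB1 depart from 0 with ASO-1570 only, SLC36A1, CENPH, COL6A3 and IGFBPL1 lie on opposite sides of 0, and IL11 lies below 0 with both.

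In splicing, the difference of effects was called for exons of several genes, and in some of them it was the control oligonucleotide that stood out. The difference of effects was called for 338 of 47960 events in 242 genes (0.705%; adjusted p below 0.05 and a PSI difference of at least 0.10, limma), with 154 above 0 and 184 below 0. The oligonucleotide changed 1384 events (2.89%), 488 upward and 896 downward, and the siRNA 138 events (0.288%), 46 upward and 92 downward. Cassette exons gave 246 of the 338 differences, mutually exclusive exons 52, alternative 3' splice sites 17, alternative 5' splice sites 16 and retained introns 7. Events changed in the same direction by both numbered 28, which is 2.02% of the calls for the oligonucleotide and 20.3% of the calls for the siRNA. Of the 338, 259 were called for the oligonucleotide only and 26 for the siRNA only. The number of called differences ranged from 145 to 1376 when 1 library was left out, the highest without replicate 3 of ASO-1570 and the lowest without replicate 2 of ASO-CTL. With the replicate number as a block, 3 events were called for the difference, 476 for the oligonucleotide and 0 for the siRNA.

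By the rule used for genes, added after values had been seen, ASO-1570 stood alone in 164 of the 338 events (48.5%, against 16.3% of all events) and ASO-CTL in 53 (15.7%, against 7.15%). The siRNA-TRA2B libraries stood alone in 15 events (4.44%, against 7.99% of all events) and the siRNA-CTL libraries in 2 (0.592%, against 5.84%). The 53 events in which ASO-CTL stood alone lay in 36 genes. In 51 of them PSI was lower in ASO-CTL than in siRNA-CTL libraries, and so the difference of effects was above 0. With the other groups close together, that sign follows from the low ASO-CTL value. These 51 were 33.1% of all differences above 0, whereas 2 of the 184 differences below 0 were of this kind. For 41 of the 53, U87MG libraries had values in all 4 groups, and ASO-CTL again stood alone in 38. Because U87MG received the same control oligonucleotide, these are a second measurement of it in another line. Of the events in which ASO-1570 stood alone, 151 had such U87MG values, and ASO-1570 again stood alone in 130. Among the 488 events that the oligonucleotide experiment scored as raised, ASO-CTL stood alone in 119 (24.4%, against 7.15% of all events). Among the 896 scored as lowered, ASO-CTL stood alone in 26 (2.9%).

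Exons from both kinds are shown in full, as transcribed, because the largest differences of the splicing comparison turn on them; capitals mark AGAA. In CNN3 and GARNL3 the control oligonucleotide stood alone, and in NUP42 and BRCC3 ASO-1570 did.

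CNN3 exon, 138 bases, chr1:94902121-94902258, minus strand: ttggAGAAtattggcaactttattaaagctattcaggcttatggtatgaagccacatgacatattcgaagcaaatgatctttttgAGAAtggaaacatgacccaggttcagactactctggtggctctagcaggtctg
GARNL3 exon, 99 bases, chr9:127353846-127353944, plus strand: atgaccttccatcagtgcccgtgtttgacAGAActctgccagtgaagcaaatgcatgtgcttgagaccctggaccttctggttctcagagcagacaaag
NUP42 exon, 87 bases, chr7:23196680-23196766, plus strand: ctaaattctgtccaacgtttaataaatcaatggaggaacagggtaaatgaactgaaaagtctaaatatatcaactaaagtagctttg
BRCC3 exon, 75 bases, chrX:155099315-155099389, plus strand: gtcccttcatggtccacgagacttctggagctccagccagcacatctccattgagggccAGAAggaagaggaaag

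AGAA occurred 2 times in the CNN3 exon, 1 time each in the GARNL3 and BRCC3 exons and 0 times in the NUP42 exon. Among tested cassette exons within 10% of the length of each, 31.8% held as many as the CNN3 exon, 51.4% as many as the GARNL3 exon and 47.5% as many as the BRCC3 exon. None of the 4 exons held GAAGAA.

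CNN3 encodes the actin-binding protein calponin 3. Its exon had a PSI of 0.997, 0.999 and 0.999 in ASO-1570 libraries, against 0.289, 0.263 and 0.329 in ASO-CTL libraries. In the siRNA experiment it had 0.996, 0.995 and 0.996 with siRNA-TRA2B, against 0.998, 0.998 and 0.998 with siRNA-CTL. The exon was thus included almost fully in 9 libraries and skipped in most transcripts in the 3 ASO-CTL libraries, and the difference of effects was 0.707 ± 0.021 (SE, n = 3 per group, adjusted p = 9.07e-07, limma). At 200 nM it averaged 0.998 with ASO-1570 and 0.242 with ASO-CTL in MDA-MB231. In U87MG it averaged 0.998 with 50 nM ASO-1570 and 0.269 with 50 nM ASO-CTL, and 0.999 with siRNA-TRA2B and 1 with siRNA-CTL.

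GARNL3, a GTPase-activating domain gene, showed the same arrangement, with a PSI of 1, 0.927 and 1 in ASO-1570 libraries, 0.122, 0.273 and 0.167 in ASO-CTL libraries, 1 in all siRNA-TRA2B libraries and 1, 1 and 0.956 in siRNA-CTL libraries. The difference was 0.774 ± 0.056 (SE, adjusted p = 0.000527, limma). GARNL3 mRNA was low, with a mean of 1.57 log2 CPM, against 9.08 for CNN3. A 75-base exon of YY1AP1, a YY1-associated gene, had 0.725, 0.764 and 0.668 in ASO-1570 libraries, 0.126, 0.084 and 0.166 in ASO-CTL libraries, 0.735 to 0.781 in siRNA-TRA2B libraries and 0.737 to 0.855 in siRNA-CTL libraries, a difference of 0.626. Other exons low only in ASO-CTL, named after their values were seen, lay in STXBP2, a syntaxin-binding gene (0.28, 0.295 and 0.346 in ASO-CTL, against 0.89 to 0.898 in ASO-1570), in ARHGAP29, a GTPase-activating gene (0.414 to 0.553 against 1 in every ASO-1570 library), and in CDC16, a subunit of the anaphase-promoting complex (0.423 to 0.576 against 0.994 to 0.999). Their differences were 0.587, 0.529 and 0.502.

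Exons that ASO-1570 itself changed made up most of the differences below 0: in 117 of those 184 it stood alone. NUP42, a nuclear pore gene, had a PSI of 0.187, 0.231 and 0.473 in ASO-1570 libraries, 0.971, 0.933 and 0.961 in ASO-CTL libraries, 0.989, 0.958 and 0.911 in siRNA-TRA2B libraries and 0.934, 0.914 and 0.942 in siRNA-CTL libraries. ASO-1570 libraries were the only low ones, and the difference was -0.681 ± 0.085 (SE, n = 3 per group, adjusted p = 0.00813, limma). BRCC3, a deubiquitinase subunit of the BRCA1-A complex, had 0.325, 0.23 and 0.36 in ASO-1570 libraries, 0.914, 0.859 and 0.864 in ASO-CTL libraries, 0.752, 0.895 and 0.8 in siRNA-TRA2B libraries and 0.823, 0.777 and 0.796 in siRNA-CTL libraries, a difference of -0.591. At 200 nM the change under ASO-1570 was -0.686 for NUP42 and -0.555 for BRCC3. Exons of ZNF440 (-0.658), RBIS (-0.549), TTLL3 (-0.624) and SH3TC2 (-0.753) were also lowest with ASO-1570. At 200 nM the change was -0.675 for ZNF440 and -0.597 for RBIS but only -0.059 for TTLL3, and SH3TC2 had no value there.

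The remaining events of the largest differences had scattered or extreme PSI values. A 23-base exon of FCF1 gave 1.366 on a scale that runs from -2 to 2, with a PSI of 1, 0.464 and 1 in ASO-1570 libraries, 0.017, 0.022 and 0.11 in ASO-CTL libraries, 0.126, 0.358 and 0.198 in siRNA-TRA2B libraries and 0.464, 1 and 1 in siRNA-CTL libraries. An exon of LINC01393 gave -1.302, with 0 in all siRNA-CTL libraries and values from 0.216 to 1 in the others. BIVM-ERCC5 (0.970), BIVM (0.817), the alternative 3' splice site of SLC38A9 (0.685) and RANBP3 (-0.640) had replicate values that spread by more than 0.10 in at least 1 group. So did the exons of NUP42, BRCC3, ZNF440, RBIS, TTLL3, SH3TC2, GARNL3 and YY1AP1, so that spread does not set these events apart. A mutually exclusive pair of CTSB differed by 0.631 because of the siRNA experiment, with 0.215, 0 and 0.23 in siRNA-TRA2B libraries and 0.711, 0.804 and 0.686 in siRNA-CTL libraries. The numbers of reads behind these values are not in the tables. The mean host gene level was very low for LINC01393 (-3.46 log2 CPM) and low for BIVM-ERCC5 (0.72), against 6.22 for FCF1 and 7.87 for CTSB.

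**Figure D5:**
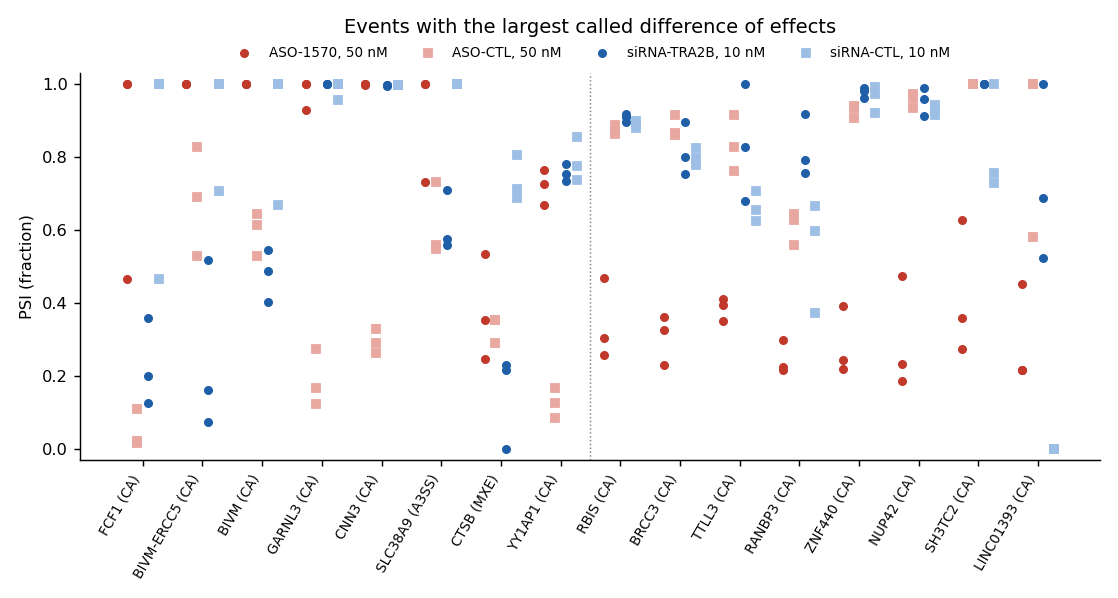
PSI, as a fraction, in each of the 12 libraries for the 8 events with the largest positive (left of the dotted line) and the 8 with the largest negative called difference of effects; CA is a cassette exon, A3SS an alternative 3' splice site and MXE mutually exclusive exons. In CNN3, GARNL3 and YY1AP1 the pale red ASO-CTL squares lie alone at the low end, and in NUP42, BRCC3, RBIS and ZNF440 the dark red ASO-1570 circles do.

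Events called for one treatment were looked up in the other; several lie in the same gene, with 138 siRNA events in 105 genes, so they are not independent. Over all events the effects shared a sign in 53.1%. Each set was chosen by the change under its own treatment, so its medians under the treatments are a description and not a comparison of size. Among the 92 events that siRNA-TRA2B lowered, the oligonucleotide effect had the same sign in 74, with a median of -0.057 beside -0.152 under the siRNA, and 20 were called for both. Among the 46 that siRNA-TRA2B raised, the sign was shared in 30 and 8 were called for both. In the reverse view, the siRNA effect had the sign of the oligonucleotide effect in 525 of the 896 events that ASO-1570 lowered and in 272 of the 488 that it raised, with medians of -0.004 and 0.005. Across all events, which are not independent, the effects had a Pearson r of 0.058.

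Of these events the following were chosen after their values were seen. An 807-base exon of SGO1, the protector of centromeric cohesion, had a PSI of 0.676, 0.731 and 0.752 in ASO-1570 libraries, 0.809, 0.856 and 0.81 in ASO-CTL libraries, 0.527, 0.544 and 0.537 in siRNA-TRA2B libraries and 0.847, 0.89 and 0.846 in siRNA-CTL libraries. Both treatments lowered it, the siRNA more, and the difference was 0.22 ± 0.031 (SE, adjusted p = 0.0151, limma). A 1080-base exon of the proliferation marker MKI67 was lowered by the siRNA only (-0.17, against 0.054 with the oligonucleotide, adjusted p = 0.144, limma), with a called difference of 0.225. Exons of PTAR1 (-0.192 with the oligonucleotide, -0.205 with the siRNA), SMAD5 (-0.178 and -0.184) and CCDC112 (-0.225 and -0.212) were lowered by both, with differences of 0.013, 0.006 and -0.013 that did not pass. Opposite calls occurred in 5 events, among them an exon of the noncoding RNA DLEU2 (0.306 and -0.226) and a 27-base exon of the kinase gene MARK3 (-0.373 and 0.159). For DLEU2 ASO-1570 libraries lay near siRNA-CTL libraries, at 1 in all 3 and at 0.896 to 1, and ASO-CTL libraries near siRNA-TRA2B libraries, at 0.672 to 0.711 and 0.727 to 0.757.

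The AGAA motif was counted in these sets. Of 21287 distinct cassette exons tested whose sequence was at hand, 55.8% held AGAA, with a median of 0.58 per 100 bases and a median length of 114 bases. Exons lowered by the siRNA held it in 89.2% of 74, with a median of 1.59 per 100 bases, and were longer, with a median of 167 bases. Exons raised by the siRNA held it in 34.8% of 23, with a median of 0 per 100 bases. Exons lowered by the oligonucleotide held it in 64.4% of 717 and exons raised by it in 54.9% of 284, with medians of 0.89 and 0.51 per 100 bases. Of exons with a called difference, 67.7% of the 99 above 0 and 57.4% of the 136 below 0 held it, with medians of 0.97 and 0.68 per 100 bases. GAAGAA was in 32.4% of exons lowered by the siRNA and in 11.7% of all. In genes listed as known TRA2 targets 110 events were tested and in SR protein genes 104, and the difference was called in 0 of each, beside 0.705% of all events, at which fewer than 1 call would fall in a set of that size. At an unadjusted p below 0.05 limma gave 5629 of the 47960 events. In HIPK3, one of those target genes, a 63-base exon had a PSI of 0.295, 0.458 and 0.703 in ASO-1570 libraries and 1 in all ASO-CTL libraries, against 0.943 to 1 in siRNA-TRA2B libraries and 0.967 to 1 in siRNA-CTL libraries, and its difference of -0.515 did not pass (adjusted p = 0.0754, limma). A 132-base exon of CD44 was lowered by the siRNA (-0.189). With the oligonucleotide it changed by -0.1, which passed the p threshold (0.00448, limma) but fell just short of the size of 0.10. Its difference of 0.089 did not pass (adjusted p = 0.0772, limma).

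The same difference of effects could be formed in U87MG, and its departure from that in MDA-MB231 was tested in one fit of 24 libraries. It was called for 4196 of 24877 genes (16.9%), of which 2541 were higher and 1655 lower in MDA-MB231. For TRA2B the difference was 2.36 in MDA-MB231 and 1.68 in U87MG (0.68 apart, adjusted p = 0.00229, edgeR), and for TRA2A it was -0.40 and -0.23 (adjusted p = 0.259, edgeR). The difference was 1.72 and 2.18 for OXTR and -1.65 and -2.13 for NORAD, with line differences that did not pass (adjusted p = 0.312 and 0.0909, edgeR). Mitosis genes had a median difference of -0.487 in MDA-MB231 and -0.978 in U87MG, and the line difference was called in 34 of the 57, of which 33 were higher in MDA-MB231. Genes of p53 differed the other way, with medians of -0.121 and 0.619. MDM2 was at -0.42 in MDA-MB231 and 0.71 in U87MG (adjusted p = 2.01e-05, edgeR). The lines share neither cells nor controls, but they share the experiment in which each treatment was run.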

How the data were processed

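RNA was sequenced from 12 MDA-MB231 libraries in 4 groups of 3 with a stranded mRNA kit, per the labels. The authors deposited raw gene counts, not scaled, one table for each experiment, and the submitters' processing notes name FastQC, MultiQC, Trimmomatic, STAR, StringTie and GRCh38, with no versions; whether counting used the strand is not given in the sources used here. PSI values were deposited as a fraction from 0 to 1 per splicing event, per the file headers and event names, without read numbers, and the reads behind an event are therefore not known. No value column of an unmapped sample was present. The deposited column names of the siRNA-TRA2B libraries carry a numeric suffix, whose meaning the labels do not give.

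Gene counts were joined by identifier and fitted in one 4-group model with edgeR 4.0.16 (TMM scaling, filter on low counts, quasi-likelihood test) in R 4.3.3, and the difference of effects was its interaction contrast. Genes were called at a Benjamini-Hochberg adjusted p below 0.05 over all genes tested. CPM values are scaled by TMM, and they compare libraries, not genes. Events with values in all 12 libraries, a PSI range of at least 0.05 and a tested host gene were fitted with limma 3.58.1, with a variance trend on host gene level, and called at an adjusted p below 0.05 and an absolute difference of at least 0.10. Both procedures were tested on simulated data. DESeq2 1.42.0 and the other alternatives are given in the closing section.

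Gene positions, overlaps and exon sequences came from GENCODE 29 on GRCh38. The alternative exons of TRA2B and TRA2A are, in each gene, the tested cassette exon with the most AGAA. Named genes were TRA2B and TRA2A, and the 12 with the largest difference in each direction among called genes whose library effects did not overlap. The 5 in each direction called oppositely, the 6 in each direction called alike, and up to 4 per list by p were added, plus members a sentence needed. A mean of at least 8 CPM (3 on the log2 scale) over all 12 libraries was required, except for list members. Named events were the 8 largest called differences in each direction, the TRA2 exons, and called events of target and SR protein genes.

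The comparison, the gene lists and the naming rules were chosen with earlier results of these data known. The labels do not say whether replicates came from separate cultures, so p-values measure the spread between these libraries, which may be technical. No 2 libraries were duplicates. Some named items are not reported here.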

Additional observations from a re-analysis of the deposited data

Results flagged for a closer look

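For 37 of the 98 genes named from the gene comparison, the difference of effects in MDA-MB231 departed from that in U87MG by the interaction test in edgeR (adjusted p below 0.05). Over all genes it did so in 4196 of 24877 (16.9%). Many of the 98 were named for their difference in MDA-MB231, which enters this test, so the count partly reflects that choice. Values are the MDA-MB231 difference minus the U87MG difference on the log2 scale. Their causes were not tested.

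The sign of the difference was opposite in the lines for several genes. TNFAIP2 was 2.28 apart, with 1.2 in MDA-MB231 and -1.08 in U87MG. IGFBP1 was -1.88 apart, with -1.43 and 0.46. CCN2 was -1.22 apart, with -0.76 and 0.46. Among p53 genes AEN was -1.23 apart, with -0.6 and 0.63, and MDM2 was -1.13 apart, with -0.42 and 0.71. PRADX was 2.17 apart, with 1.95 and -0.22. ID3 was 1.29 apart, with 1.25 in MDA-MB231 and a value near 0 in U87MG (-0.04). Signs were also opposite, among others, for LOXL4 (0.99 in MDA-MB231 and -0.37 in U87MG), PRRG4 (0.14 and -0.8), DHX9 (-0.42 and 0.24) and DNAJC3 (-0.54 and 0.22).

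Positive departures were measured for LUM (1.68), LOXL4 (1.35), MUC1 (1.24), RELB (1.09), NFKBIA (0.98), PRRG4 (0.94), PDIA5 (0.71), TRA2B (0.68), AUH (0.56), SRPK1 (0.53) and HERC6 (0.48). Smaller ones were those of CDC20 (0.46), ARNT (0.43), RAD54L (0.38), TGFB2 (0.36), RNASEH1 (0.29) and CDC6 (0.25).

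Negative departures were measured for COL6A3 (-0.99), SLC36A1 (-0.89), KRT7 (-0.89), SLCO4A1 (-0.79), DNAJC3 (-0.76), DHX9 (-0.66), IFIT2 (-0.62), LRRC58 (-0.57) and SF3A3 (-0.57). Those of TNC (-0.51), PGAM1 (-0.44), CENPU (-0.43) and CCNG1 (-0.38) were smaller.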

How the results depend on the processing

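The genes with different effects numbered 3381 to 4955 under the alternatives other than leaving out a library, against 4436, and no call named in the text changed sign. Without the low-count filter the genes changed by siRNA numbered 898. Splicing counts moved more. With the variance trend on mean PSI 56 events were called for the siRNA, and on the arcsine square root scale 78. At an absolute difference of at least 0.20 the counts were 214 for the difference, 576 for the oligonucleotide and 36 for the siRNA.

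Whether replicate numbers pair the libraries cannot be decided with 3 libraries per group. Residual correlations of like-numbered libraries ran from -0.231 to 0.25. Replicate 3 had 0.25 with the oligonucleotide and 0.238 with the siRNA, against at most -0.063 and -0.087 with other numbers. Replicates 1 and 2 had -0.052 and -0.231 with the oligonucleotide and 0.045 and 0.06 with the siRNA. With the replicate number as a block the genes with different effects numbered 4955 and the difference was 2.35 for TRA2B and -0.402 for TRA2A, whereas events called were 3 for the difference, 476 for the oligonucleotide and 0 for the siRNA.

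Leaving out 1 library gave 3283 to 5415 genes for the difference, 5479 to 7734 for the oligonucleotide and 626 to 1977 for the siRNA, the lowest without replicate 1 of siRNA-CTL and the highest without replicate 3 of ASO-1570. It gave 145 to 1376 events for the difference, 698 to 2307 for the oligonucleotide and 60 to 152 for the siRNA. TRA2B ran from 2.248 to 2.404, TRA2A from -0.448 to -0.372 and the poison exon from 0.124 to 0.239. The cause of these shifts was not tested. Of 88 other named genes called, VIM-AS1, NFKBIA and NEAT1 lost their call without some library, and SEMA6B gained one. In the fit with the U87MG libraries VIM-AS1, STING1 and ITGB2 lost theirs. List counts without 1 library were chosen after seeing the data. Unknown read numbers per event limit the PSI results.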
